A study of Homo sapiens with 8 samples.

Results

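The data describe 10 genes of the IL6ST receptor and JAK-STAT3 signaling pathway in PANC-1, an established human cell line that was derived from a ductal carcinoma of the pancreas. The genes are the receptor chains IL6ST, IL6R, LIFR and OSMR, the cytokine LIF, the kinases JAK1, JAK2 and TYK2, the transcription factor STAT3 and the feedback inhibitor SOCS3. They are 10 of the 20263 genes in the table, picked by name after the difference between EB and DMSO in these same libraries was known. Cells received the solvent dimethyl sulfoxide (DMSO) or 10 μM eupalinolide B (EB), a sesquiterpene lactone of the plant Eupatorium lindleyanum, for 24 h, and both groups were otherwise the same unmodified line. Each group has 4 libraries, which the study calls biological replicates although its methods also speak of triplicates. Where they do not come from separate cultures, the errors below measure only technical spread.

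The cytokines of the IL-6 family act through a shared chain, gp130, which IL6ST encodes. IL-6 first binds its own receptor chain IL6R, whereas LIF pairs LIFR with gp130 and oncostatin M pairs gp130 with OSMR or LIFR. The paired chains bring JAK kinases together, these phosphorylate STAT3, and STAT3 enters the nucleus and induces genes, SOCS3 among them, whose product then blocks gp130 and the kinases. In carcinomas of the pancreas this route is known for its link to inflammation and growth.

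Levels are given in TPM, the abundance of a transcript relative to all transcripts of its library, which the authors computed with a correction for transcript length, so that genes can be compared with each other. TPM keep no record of read number, so the depth behind a value is unknown. Genes with at least 1 TPM in at least 4 libraries, 11725 in all, entered one limma fit on log2(TPM + 1). On this scale the fold change of a low gene is understated. The 10 genes were chosen on this contrast, so their differences are given as a description with a standard error and without a test. All 10 passed the filter on low values, but IL6ST passed it only through the DMSO libraries and IL6R through 1 DMSO and 4 EB libraries.

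In the libraries, the 13 mitochondrially encoded genes took 17.0% to 39.0% of the TPM with DMSO and 11.6% to 20.3% with EB. DMSO replicate 4 is the library at 39.0%, and OSMR, LIF, JAK1, JAK2, TYK2, STAT3 and SOCS3 had their lowest DMSO value in it. The epithelial keratins KRT8, KRT18 and KRT19 reached at least 135.5 TPM in every library, with higher means with EB (1710, 1119 and 568.6 TPM) than with DMSO (755.1, 399.3 and 163.4 TPM). KRT19 is also the usual keratin of ducts, whereas KRT7 and EPCAM, markers of duct epithelium too, stayed at or below 0.387 TPM, so that the duct markers were present in part. Markers of acinar, endocrine, endothelial and blood cells (PRSS1, CPA1, CELA3A, INS, GCG, PECAM1, PTPRC and CD3E) were listed at 0, and the fibroblast markers COL1A1 and PDGFRB stayed at or below 2.17 TPM. What the mitochondrial share and the keratins have to do with the results below was not tested. The methods name both hg38 and the mouse build GRCm38 as genome, all identifiers are human, and positions below are those of GENCODE release 44 on hg38.

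IL6ST showed the widest difference of the 10 genes. It lies on the minus strand of chromosome 5, from 55935095 to 55995022. TPM values were 16.6, 17.0, 5.51 and 13.8 in DMSO replicates 1 to 4 and 0.555, 0.616, 0.384 and 0.183 in EB replicates 1 to 4. Even the lowest DMSO library, replicate 3, lay far above all EB libraries. DMSO averaged 13.2 ± 5.34 TPM (SD, n = 4) and EB 0.434 ± 0.194 TPM (SD, n = 4), which is a ratio of the means of 30.4 and a log2 fold change of −3.21 (standard error 0.30). Because the EB values lie below the pseudocount, the log2 fold change was −4.60 with a pseudocount of 0.1. In bulk RNA, a lower level in every cell and a loss of IL6ST from part of the cells cannot be told apart.

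IL6R, the chain that binds IL-6 itself, differed in the other direction. It lies on chromosome 1 from 154405193 to 154469450. Its TPM was 1.35, 0.583, 0.519 and 0.806 with DMSO and 5.01, 4.22, 3.51 and 2.53 with EB, so that every EB library was above every DMSO library. The means were 0.815 ± 0.379 (SD, n = 4) and 3.82 ± 1.05 (SD, n = 4), a ratio of 4.68 in favor of EB and a log2 fold change of 1.40 (standard error 0.20). At these low levels the pseudocount matters here too, and 0.1 in place of 1 gave 2.14.

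LIFR and OSMR, the partners that pair with gp130, lie next to each other on chromosome 5, LIFR from 38474668 to 38608354 on the minus strand and OSMR from 38845858 to 38945596 on the plus strand. LIFR was low in both groups, at 3.70, 4.58, 2.91 and 2.92 TPM with DMSO and 3.02, 4.06, 2.09 and 2.32 with EB. The groups overlapped, and the log2 fold change of −0.24 (standard error 0.19) lay near that of the median gene, −0.11. OSMR was the most abundant of the 4 chains. Its TPM was 72.4, 76.4, 75.1 and 53.5 with DMSO and 42.1, 49.6, 35.8 and 41.4 with EB, with no overlap and a log2 fold change of −0.70 (standard error 0.16).

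**Figure D1:**
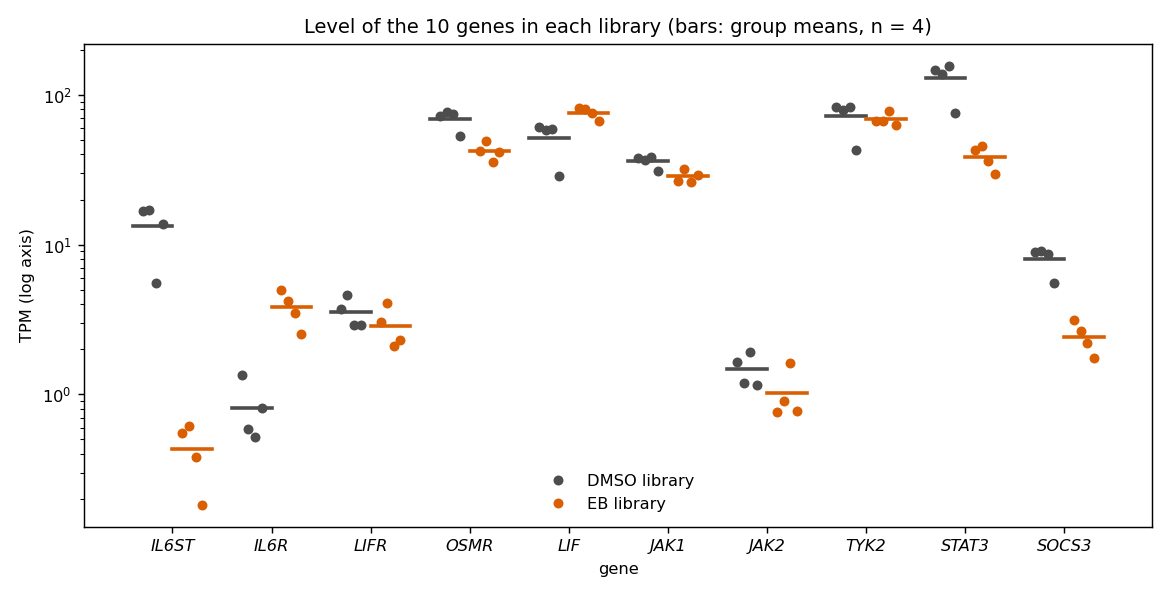
TPM of the 10 genes (log axis) in each of the 4 DMSO and 4 EB libraries, with points in replicate order and a bar at each group mean. IL6ST sits between 5.51 and 17.0 with DMSO and at most at 0.616 with EB, IL6R is higher with EB in every library, and LIFR, JAK1, JAK2 and TYK2 overlap between the groups.

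Ratios within a library do not depend on how libraries are scaled to each other. With DMSO, IL6ST exceeded IL6R and LIFR in all 4 libraries, with an IL6R to IL6ST ratio between 0.0344 and 0.0942 and a LIFR to IL6ST ratio between 0.212 and 0.528. With EB the order was turned around in all 4 libraries, at 6.85 to 13.8 for IL6R and 5.45 to 12.7 for LIFR. OSMR stood at 3.88 to 13.6 times IL6ST with DMSO and at 75.8 to 226.4 times with EB. The ratio between OSMR and LIFR overlapped, at 16.7 to 25.8 with DMSO and 12.2 to 17.8 with EB. The shared chain thus passed from the second most abundant of the 4 receptor chains to the least abundant.

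**Figure D2:**
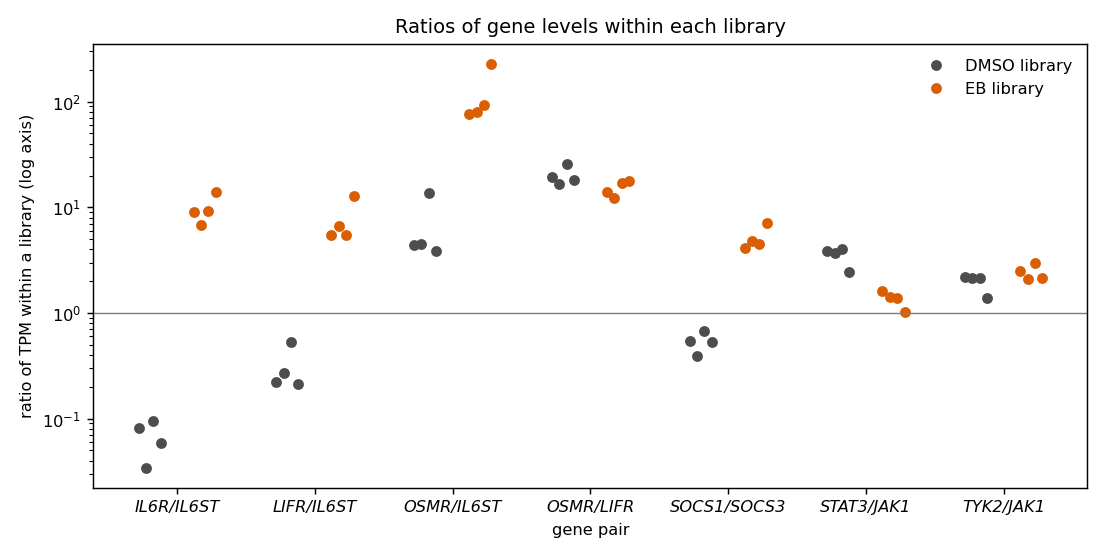
Ratio of the TPM of gene pairs within each library (log axis, line at 1), with DMSO and EB libraries in replicate order. IL6R/IL6ST, LIFR/IL6ST and SOCS1/SOCS3 lie below 1 in all 4 DMSO libraries and above 1 in all 4 EB libraries, while OSMR/LIFR and TYK2/JAK1 overlap.

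LIF, a cytokine that maintains stem cells in culture and is secreted by many carcinomas, was among the more abundant genes of the set. Its TPM was 60.8, 58.7, 59.0 and 28.7 with DMSO and 81.2, 80.6, 75.8 and 66.7 with EB, with all EB libraries above all DMSO libraries. The log2 fold change was 0.60 (standard error 0.23), and 0.35 without DMSO replicate 4, whose value is 28.7. LIF lies on chromosome 22 from 30240453 to 30246759 on the minus strand.

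Of the kinases, JAK1 is the one on which gp130 chiefly relies, and JAK2 and TYK2 also bind it. JAK1 had 38.0, 37.0, 38.7 and 31.0 TPM with DMSO and 26.5, 32.2, 26.3 and 29.3 with EB. Only DMSO replicate 4 fell within the range of EB, and the log2 fold change was −0.33 (standard error 0.13). TYK2 had 83.6, 79.8, 82.4 and 43.2 TPM with DMSO against 66.5, 67.2, 77.7 and 63.2 with EB, which overlap (log2 fold change −0.03, standard error 0.21). JAK2 was near the filter in both groups, at 1.63, 1.20, 1.93 and 1.15 TPM with DMSO and 0.759, 0.902, 1.63 and 0.773 with EB (log2 fold change −0.31, standard error 0.17). TYK2 to JAK1 ratios overlapped between the groups as well, at 1.39 to 2.20 with DMSO and 2.09 to 2.96 with EB.

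STAT3 was the most abundant of the 10 genes with DMSO. It lies on the minus strand of chromosome 17, from 42313324 to 42388540. TPM values were 145.6, 137.3, 156.1 and 75.8 with DMSO and 42.8, 45.7, 36.4 and 29.7 with EB, without overlap. The means were 128.7 ± 36.1 (SD, n = 4) and 38.7 ± 7.11 (SD, n = 4), a ratio of 3.33 and a log2 fold change of −1.67 (standard error 0.24). STAT3 exceeded JAK1 by a factor of 2.45 to 4.03 in the DMSO libraries and of 1.02 to 1.62 in the EB libraries. These are RNA levels, and neither the STAT3 protein nor its phosphorylation was measured in these libraries.

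SOCS3, the feedback inhibitor that STAT3 induces, lies on the minus strand of chromosome 17, from 78356778 to 78360077. TPM values were 8.95, 9.08, 8.68 and 5.54 with DMSO and 3.13, 2.66, 2.19 and 1.75 with EB, without overlap. The ratio of the means was 3.31 and the log2 fold change −1.40 (standard error 0.18). The ratio of the means was thus close to that of STAT3, on levels that differ widely.

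STAT proteins bind a palindrome, here searched as TTCNNNGAA and in the narrower form TTCCNGGAA, which is contained in the first. Both read the same on either strand. In the window from 250 bases before to 50 bases after the start of the canonical GENCODE transcript, 5.73% of the 11685 tested genes with a window hold the first form and 1.23% the second. Of the 10 genes, SOCS3 and LIF hold the first form and SOCS3 alone the second. Of 24 tested genes described as STAT3 targets, treated further on, 4 hold the first form, IRF1, BCL6, CCND1 and BIRC5. The sequence around the match of IRF1 is shown as an example, since IRF1 had the widest fall of those targets, with the matching bases in capitals, 5′ to 3′ on the strand of the gene. It is chr5:132490849-132490937 (minus strand) of hg38, and the first matching base lies 124 bases before the start.
IRF1: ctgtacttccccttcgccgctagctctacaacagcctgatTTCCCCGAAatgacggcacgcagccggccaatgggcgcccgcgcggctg
A match describes these letters and is not evidence that a STAT protein binds there. No match in the windows of IL6ST, IL6R, LIFR, OSMR, JAK1, JAK2, TYK2 and STAT3 says only that these letters do not stand in this window.

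In the order of levels with DMSO, STAT3 came first (128.7 TPM), followed by TYK2 (72.2), OSMR (69.4), LIF (51.8), JAK1 (36.2), IL6ST (13.2), SOCS3 (8.06), LIFR (3.53), JAK2 (1.48) and IL6R (0.815). The neighbors in this order overlapped, apart from the steps from JAK1 to IL6ST, from SOCS3 to LIFR and from LIFR to JAK2. With EB the order was LIF (76.1), TYK2 (68.6), OSMR (42.2), STAT3 (38.7), JAK1 (28.6), IL6R (3.82), LIFR (2.88), SOCS3 (2.43), JAK2 (1.02) and IL6ST (0.434). Here the steps from TYK2 to OSMR, JAK1 to IL6R, SOCS3 to JAK2 and JAK2 to IL6ST were without overlap. STAT3 and OSMR could not be ordered with EB, since STAT3 was the higher in 2 of 4 libraries. The same held for LIFR and SOCS3, where LIFR was the higher in 2 of 4 EB libraries. Among the 11725 tested genes IL6ST passed from percentile 38.6 with DMSO to percentile 0.324 with EB and IL6R from 0.563 to 17.9. Genes that did not pass the filter are left out of this ranking. A tested gene under 1 TPM in a group therefore falls near its bottom by construction, and not near the bottom of the whole table.

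Counted over the set, 5 of the 10 genes had a limma adjusted p under 0.05, IL6R higher and IL6ST, OSMR, STAT3 and SOCS3 lower with EB. Over all tested genes this share was 40.3%, with 15.2% higher and 25.1% lower. By the thresholds of the paper, an unadjusted p under 0.05 with a log2 fold change beyond 1.5 in either direction, 2 of 10 were called, IL6ST and STAT3, both lower. Over all tested genes 2.08% were called by these thresholds, 0.537% higher and 1.54% lower. The groups did not overlap in 6 of the 10 genes, 2 above and 4 below, against 36.8% of all tested genes, of which 16.6% were above and 20.3% below. As the set was chosen with this contrast known, nothing is read from these shares. The median log2 fold change was −0.32 over the 10 genes and −0.11 over all tested genes.

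**Figure D3:**
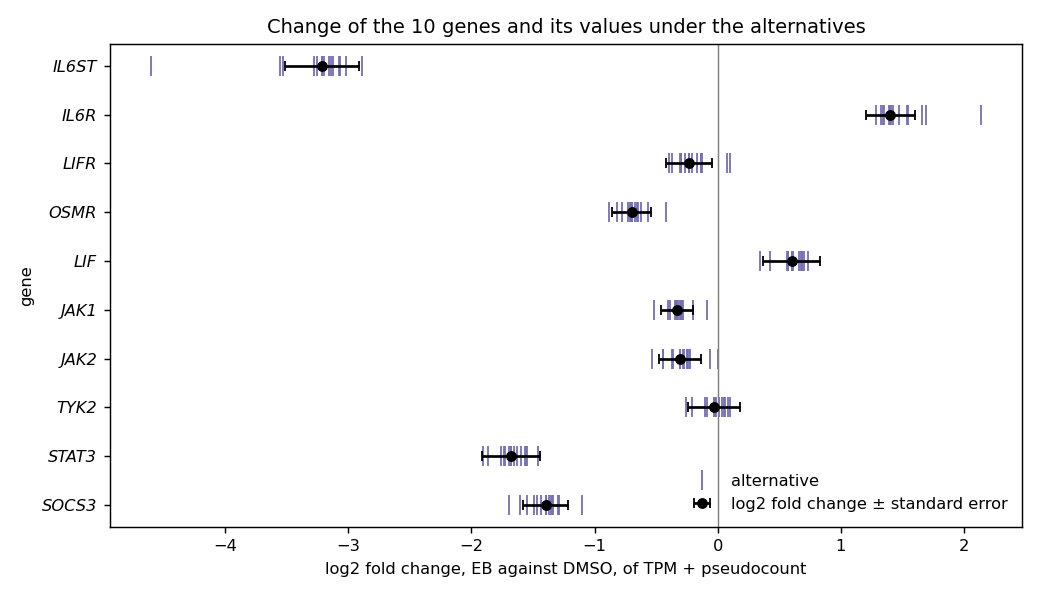
Log2 fold change of EB against DMSO for the 10 genes, with the standard error (black) and the values under the 17 alternative settings (ticks). IL6ST, STAT3, SOCS3 and OSMR lie left of 0 and IL6R and LIF right of 0 under every alternative that gave a value, while LIFR, JAK2 and TYK2 have values on both sides.

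Fold changes in this table were lower the longer the transcript, and most of the 10 genes have long ones. By decile of length, the median log2 fold change ran from 0.41 for the shortest (up to 1225 nucleotides) to −0.54 for the longest (from 7315 nucleotides). IL6ST, at 9027 nucleotides, differed from the median of its decile by −2.68. The same difference was −1.33 for STAT3 (4921 nucleotides), −1.29 for SOCS3 (2734) and 1.85 for IL6R (5764). LIFR, with 10553 nucleotides the longest of the set, lay 0.30 above the median of the same decile as IL6ST. After removal of the length and GC trend within each library, the log2 fold change was −2.89 for IL6ST, and OSMR, at −0.42, no longer had an adjusted p under 0.05. JAK1 (−0.08), JAK2 (0.0048) and LIFR (0.10) then lay near 0.

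**Figure D4:**
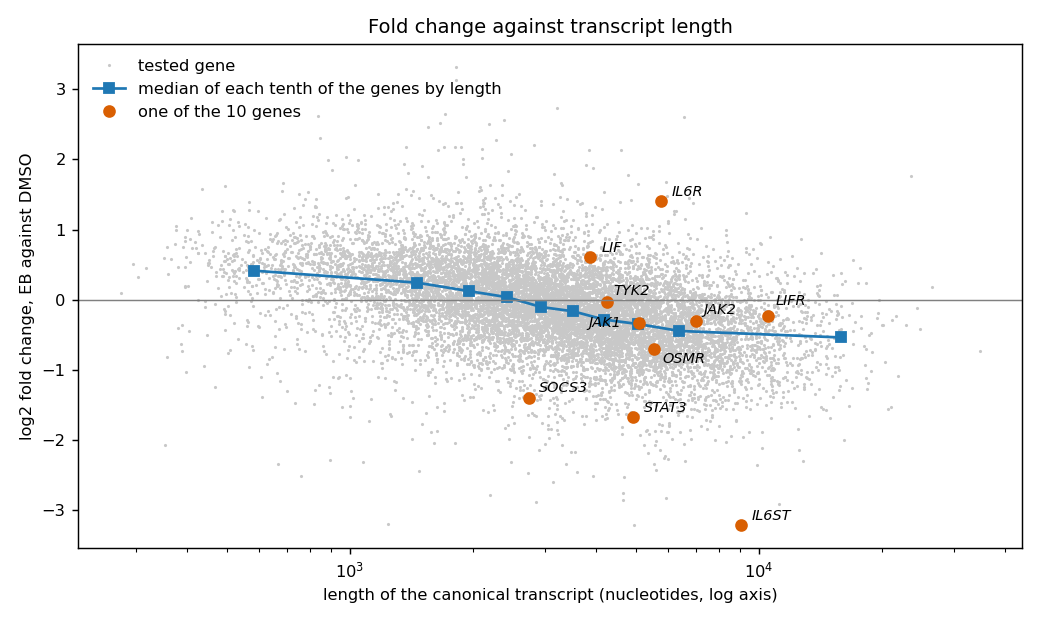
Log2 fold change of EB against DMSO for each tested nuclear gene against the length of its canonical transcript (log axis), with the median of each decile of length and the 10 genes of the set. The medians run from 0.41 to −0.54, with JAK1 on them, and IL6ST, STAT3, SOCS3 and IL6R well apart from them.

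Scaling between libraries moved the median gene, and with it the balance of the whole table. Of the 4729 genes at an adjusted p under 0.05, 37.7% were higher with EB. That share was 51.2% with median-ratio scaling (median log2 fold change 0.01), 50.3% with quantile normalization and 22.9% after rescaling without the mitochondrial genes (median −0.28). The log2 fold change of IL6ST was −3.14, −3.02 and −3.53 under these settings. With the mitochondrial genes removed, the 4 EB values of JAK1, from 29.9 to 37.7 TPM, were all below its 4 DMSO values, from 45.8 to 50.8 TPM, and LIF remained without overlap.

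The other genes of the pathway came from 6 lists compiled by hand, 87 genes in all, of which 59 were tested. Of these, 30 passed a limma adjusted p of 0.05, which is 50.8% against the 40.3% of all tested genes, with 7 higher and 23 lower with EB. Over all tested genes 15.2% were higher and 25.1% lower, and the counts by list below stand beside these shares. The lists were compiled with earlier results of these data known, so nothing is read from these shares. GAB1 and LCN2, among the 30, passed the filter only through the DMSO libraries. The median log2 fold change of the 59 tested genes was −0.34.

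Among 10 further cytokines and soluble partners of the family, 4 were tested, 1 rose and 1 fell. IL6, IL27 and IL31 were listed at 0 in all 8 libraries, OSM was above 0 in DMSO replicate 1 only, at 0.09 TPM, and CNTF and EBI3 did not pass the filter. CLCF1, a ligand that pairs gp130 with LIFR after binding CNTFR, rose from 8.33 ± 2.22 (SD, n = 4) to 18.2 ± 0.860 (SD, n = 4) TPM (log2 fold change 1.07, limma adjusted p = 0.0015). IL11 fell from 3.40 ± 1.36 (SD, n = 4) to 1.52 ± 0.443 (SD, n = 4) TPM (log2 fold change −0.76, limma adjusted p = 0.0252), a call lost without DMSO replicate 1 or 2 and without EB replicate 3 or 4, when 1 gene of the list was called. The limma adjusted p of IL11 ran up to 0.0721 over the alternatives, with a log2 fold change of −0.63 at the least when a library was left out. CTF1, which encodes cardiotrophin 1, had a log2 fold change of 0.12 (limma adjusted p = 0.435).

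Of 8 other receptor chains and sheddases, 5 were tested and 2 fell. IL11RA, the chain specific to IL-11, went from 12.0 ± 2.34 (SD, n = 4) to 7.07 ± 1.07 (SD, n = 4) TPM (log2 fold change −0.67, limma adjusted p = 0.0113). ADAM10, a protease that releases IL6R from the cell surface, fell by 0.85 on the log2 scale (limma adjusted p = 0.00253), and ADAM17, the main such protease, had −0.41 (limma adjusted p = 0.0531). CNTFR had 0.42 and IL27RA 0.29 (limma adjusted p = 0.0904 and 0.301). IL27RA, at 108.5 ± 29.8 TPM (SD, n = 4) with DMSO, was the most abundant chain of this list. The number called rose to 5 with median-ratio scaling, where CNTFR and IL27RA were called higher.

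Of 7 other kinases and STAT factors, 6 were tested and 3 fell, STAT5A and STAT2 among them. STAT5A stands on chromosome 17 with 1381 base pairs between it and STAT3. Its TPM was 12.3, 14.6, 14.8 and 8.72 with DMSO and 3.18, 3.92, 3.08 and 2.91 with EB (log2 fold change −1.65, standard error 0.17, limma adjusted p = 0.000191). STAT5B, its close relative, had a log2 fold change of −0.20 (limma adjusted p = 0.507), and the ratio of STAT5A to STAT5B was 0.602 to 0.768 in the DMSO libraries and 0.188 to 0.264 in the EB libraries. STAT2, which carries interferon signals, fell by 0.89 on the log2 scale (limma adjusted p = 0.0124), although its groups overlapped. STAT6 had −0.36 and JAK3 0.12 (limma adjusted p = 0.119 and 0.496).

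The inhibitors of the pathway, 16 genes with 13 tested, split in direction. SOCS1, which blocks the catalytic domain of the JAK kinases, had 4.81, 3.56, 5.90 and 2.96 TPM with DMSO and 12.9, 12.8, 9.92 and 12.4 with EB (log2 fold change 1.32, standard error 0.18, limma adjusted p = 0.000775). The ratio of SOCS1 to SOCS3 was 0.392 to 0.680 in the DMSO libraries and 4.13 to 7.10 in the EB libraries. SOCS2 also rose (0.67, limma adjusted p = 0.0326), and SOCS6 (−0.72, limma adjusted p = 0.00498), PIAS3 (−0.46, limma adjusted p = 0.0284) and PIAS1 (−0.46, limma adjusted p = 0.0296) fell. PIAS3 is the member of its family known to bind STAT3. SOCS6 lost its call after removal of the length and GC trend (−0.44), as did SOCS2 (0.54) and PIAS1 (−0.10), and PIAS1 also with median-ratio scaling and quantile normalization. The calls of SOCS2, PIAS1 and PIAS3 were lost without any 1 of several libraries of either group. With a library left out, their log2 fold changes lay between 0.52 and 0.84 for SOCS2, −0.52 and −0.36 for PIAS1, and −0.57 and −0.40 for PIAS3. The phosphatases PTPN1 (0.13) and PTPN2 (−0.01) were not past the threshold (limma adjusted p = 0.556 and 0.962). The number called varied. It was 3 without DMSO replicate 1, 2 or 3 and 2 without EB replicate 1 or 3, while SOCS1 was called under every alternative run.

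Of 8 adaptors that link gp130 to the ERK and PI3-kinase branches, 7 were tested and 4 fell, SOS1, GAB1, SOS2 and SHC1. SOS1, an exchange factor that loads RAS with GTP, went from 14.7 ± 1.12 (SD, n = 4) to 5.08 ± 1.19 (SD, n = 4) TPM (log2 fold change −1.39, limma adjusted p = 0.000291). GAB1, a docking protein, went from 2.50 ± 0.477 (SD, n = 4) to 0.623 ± 0.0882 (SD, n = 4) TPM (log2 fold change −1.10). GAB1 passed the filter only through the DMSO libraries, so it had to differ, and its place among the 4 carries no weight. SOS2 fell by 0.82 and SHC1 by 0.46 on the log2 scale (limma adjusted p = 0.0039 and 0.0467). The call of SHC1 was lost with a pseudocount of 0.1, with no filter on low values and without DMSO replicate 1, 2 or 3 or EB replicate 1, 3 or 4 (log2 fold change −0.60 to −0.39 with a library left out). PTPN11, the phosphatase SHP2 that docks on gp130, had −0.35 (limma adjusted p = 0.132), and −0.50 without DMSO replicate 4, when it passed the threshold.

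The list of genes described as STAT3 targets holds 38 genes, of which 24 were tested. The threshold was passed by 14, 4 higher and 10 lower, or 58.3% of those tested. Over all tested genes this share was 40.3%, with 15.2% higher and 25.1% lower. As the list was compiled with earlier results known, nothing is read from the difference. The median log2 fold change was −0.32. Many of these genes are also known to answer to NF-κB, interferon or stress signals, and what STAT3 contributes was not tested. LCN2, 1 of the 10, passed the filter only through the DMSO libraries and so had to differ.

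The widest falls on that list were those of IRF1 (−2.17), MUC1 (−2.04), SERPINA3 (−1.88), BCL6 (−1.68) and CEBPD (−1.63). SERPINA3, an acute phase protease inhibitor, had 1419.6, 1267.5, 1268.8 and 952.8 TPM with DMSO and 384.1, 328.4, 333.7 and 278.6 with EB (standard error 0.16, limma adjusted p = 6.62e-05). IRF1, a transcription factor of the interferon response, fell from 61.8 ± 9.60 (SD, n = 4) to 13.6 ± 5.94 (SD, n = 4) TPM (limma adjusted p = 0.000278). MUC1, a membrane mucin of duct epithelium, fell from 18.5 ± 2.27 (SD, n = 4) to 3.85 ± 1.36 (SD, n = 4) TPM (limma adjusted p = 0.000148), and CEBPD, a factor of the acute phase response, from 18.4 ± 3.60 (SD, n = 4) to 5.35 ± 1.60 (SD, n = 4) TPM (limma adjusted p = 0.000514). BCL6, a transcriptional repressor, had a limma adjusted p of 0.00171. The groups of these 5 genes, picked as the widest falls, did not overlap. Over the list, 10 of the 24 tested genes lay below without overlap, against 20.3% of all tested genes. A further 4 lay above, against 16.6%. Nothing is read from these shares either.

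The 4 targets that rose were CEBPB (1.54), CDKN1A (1.34), FOS (1.22) and TIMP1 (0.73). CEBPB, which encodes another factor of the acute phase response, went from 40.8 ± 7.29 (SD, n = 4) to 119.1 ± 6.28 (SD, n = 4) TPM (limma adjusted p = 0.000144), opposite in direction to CEBPD. CDKN1A, the cell cycle inhibitor p21, rose with a limma adjusted p of 0.00129, FOS with 0.00637 and TIMP1 with 0.00192. TIMP1 has a transcript of 769 nucleotides and lost its call after removal of the length and GC trend (0.27, limma adjusted p = 0.126, the highest over the alternatives, which began at 0.000198). Of the survival and growth genes, MYC fell by 0.55 on the log2 scale (limma adjusted p = 0.0175, not past 0.05 without DMSO replicate 2 or EB replicate 3, nor with median-ratio scaling or quantile normalization). MCL1 (−0.30), BCL2L1 (0.22), CCND1 (−0.41), PIM1 (0.01) and BIRC5 (0.17) were not past the threshold, with limma adjusted p from 0.0897 to 0.961. Liver acute phase genes on the list, SAA1, SAA2, FGA, FGB, A2M and LBP, were listed at 0 in all libraries.

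**Figure D5:**
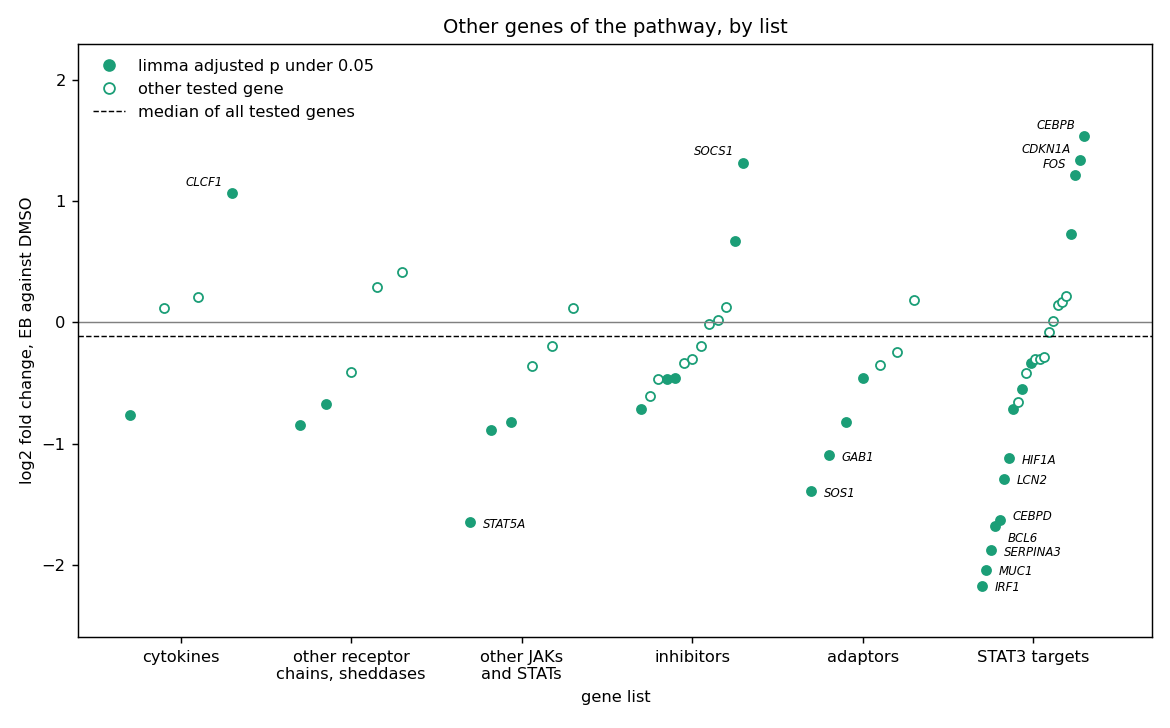
Log2 fold change of EB against DMSO for the 59 tested genes on the 6 other lists, filled where the limma adjusted p is under 0.05, with the median of all tested genes (dashed, −0.11). STAT5A, SOS1, GAB1 and a group of STAT3 targets led by IRF1 lie lowest, and CEBPB, CDKN1A, SOCS1, FOS and CLCF1 lie above 1.

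The 5 tested genes with a profile nearest to that of IL6ST, by the root mean square difference over the 8 libraries of log2(TPM + 1) less the DMSO mean, were ZNF467 (0.480), PRODH (0.570), CBL (0.624), TNFAIP3 (0.646) and PNCK (0.647). Of these, PRODH, which encodes proline dehydrogenase, had 8.31, 8.37, 8.49 and 5.89 TPM with DMSO and 0.337, 0.235, 0.260 and 0.208 with EB. Like IL6ST, PRODH passed the filter only through the DMSO libraries and so had to differ. CBL, a ubiquitin ligase for receptors, was at 6.98 to 14.9 TPM with DMSO and 0.465 to 1.23 with EB, and TNFAIP3, an inhibitor of NF-κB, at 12.3 to 22.0 and 0.973 to 3.03. The measure ranks genes by how alike their values are in these 8 libraries and is mostly set by the size of the difference between the groups.

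The tested genes on either side of IL6ST on chromosome 5 are SLC38A9, 161901 base pairs away, and MAP3K1, 820527 base pairs away. SLC38A9, a lysosomal amino acid sensor, had 7.46 to 13.3 TPM with DMSO and 7.67 to 15.1 with EB (log2 fold change 0.20, limma adjusted p = 0.528). MAP3K1, a kinase upstream of JNK, had 2.07 to 3.54 TPM with DMSO and 0.920 to 1.45 with EB (log2 fold change −0.88, limma adjusted p = 0.00237). CAVIN1, the tested gene on the other side of STAT3 from STAT5A, had a log2 fold change of 0.0013 (limma adjusted p = 0.996).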

How the data were processed

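RNA of PANC-1 cells was sequenced as 8 mRNA libraries. The authors trimmed, mapped, counted and normalized the reads in CLC Genomics Workbench, name HISAT2 and StringTie among further tools, and deposited the TPM as a single table with a column per library. Columns headed C were read as DMSO and columns headed H, which is unexplained, as EB, the only other group, with the number as replicate. Depth is unknown, and no counting error can be given. Of the identifiers, 20148 matched a symbol in GENCODE 44 and 115 did not, and no 2 libraries were identical.

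The groups were compared on log2(TPM + 1) with limma 3.58.1 (R 4.3.3), without trend or block (prior degrees of freedom 3.88), two-sided, with Benjamini-Hochberg adjustment over the 11725 genes with at least 1 TPM in at least 4 libraries. Genes and lists were chosen with earlier results of these data known. Named are the 10 genes, of each list at most the 5 called genes with the largest fold change and genes needed to read a count, the neighbors of IL6ST and the 5 nearest profiles. CAVIN1 was named after its values were seen. Promoters were read from hg38. Protein sequences were not used here, and some genes and promoter sequences are not reported here. Alternatives were a pseudocount of 0.1, no filter, at least 5 TPM, median-ratio scaling, quantile normalization, removal of mitochondrial genes, removal of the length and GC trend (loess, span 0.5), an intensity trend, a replicate block and each library left out. Same-numbered libraries did not deviate together throughout (correlation −0.09 to 0.28 across genes), so the numbers were not taken as pairs. The mitochondrial share was lowest in replicate 1 and highest in replicate 4 of both groups. It went from 17.0% to 39.0% with DMSO and from 11.6% to 20.3% with EB. Whether the numbers mark pairs is thus not settled, and the replicate block stands as an alternative. On simulated data with independent normal noise, 200 of 11725 genes were shifted by 1.5 on the log2 scale, up or down. Of these, 89% were found, with 10 false calls. In the real table far more genes differ and many differences are smaller, so these figures do not carry over to the calls above. Python 3.11.15, numpy 2.4.6, pandas 2.3.3 and matplotlib 3.10.9 were used.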

Additional observations from a re-analysis of the deposited data

Results flagged for a closer look

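In 16 of the 138 groups of 4 libraries examined (tested genes of all lists, DMSO and EB), the gap of the highest or lowest library to its nearest neighbor, divided by the range of the group, exceeded Dixon's critical value. Chance gives about 1 in 20 such groups where values are normal and groups independent. These groups share the same libraries and are not independent, so the count is not compared with that rate. DMSO replicate 4 was the low library in 9 of them, namely for LIF (0.933, 28.7 TPM against 58.7 or more), TYK2 (0.907), SOCS3 (0.887, 5.54 against 8.68 or more), ADAM17 (0.966), STAT5B (0.939), PTPN1 (0.845), CCND1 (0.929), JUNB (0.865) and DNMT1 (0.835). In this library the mitochondrial genes took 39.0% of the TPM. It was the high library for FAS (0.944, 8.49 TPM against 4.91 or less).

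Among the EB libraries, replicate 3 stood apart for JAK2 (0.835, 1.63 TPM against 0.902 or less), SOCS1 (0.83, 9.92 against 12.4 or more), SOS2 (0.85, 4.44 against 7.26 or more) and LCN2 (1, 0.153 TPM where the other 3 are listed at 0). EB replicate 1 was low for SOCS4 (0.921), and DMSO replicate 2 was high for MYC (0.848, 34.7 against 28.5 or less).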

How the results depend on the processing

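Of 167 values of the 10 genes under the alternatives, 160 moved by less than 1 SD of the libraries, 7 moved by more and no called value changed sign. The 7 were IL6ST (−4.60) and IL6R (2.14) with a pseudocount of 0.1, JAK1 (−0.51) with the mitochondrial genes removed, and LIFR, OSMR, JAK1 and JAK2 with the length and GC trend removed, as given above. IL6ST, STAT3 and SOCS3 had an adjusted p under 0.05 in all 17 alternatives, IL6R in the 16 that gave it a value and OSMR in 16 of 17. The same held for LIF in 6, for JAK1 in 4 and for JAK2 in 1 of the 16 that gave it a value. Since the 10 genes were chosen on this contrast, these counts describe only how the processing moves the values and are no test of a difference. IL6ST moreover passed the filter only through the DMSO libraries. IL6R, LIFR and JAK2 have no value at 5 TPM. The number of the 10 genes called was 8 with the mitochondrial genes removed, 4 at 5 TPM, 6 with the replicate block and 5 to 7 with a library left out, 7 being the count without DMSO replicate 4. For EB against DMSO across all genes, the replicate block called 5756, and a library left out 3382 to 6159 (6159 without DMSO replicate 4). With the block, LIF, ADAM17, SOCS5, SOCS7 and CCND1 became called and IER3 did not stay so. Same-numbered libraries correlated best with each other for numbers 1 and 4 only. By the thresholds on the unadjusted p and fold, 4 of the 10 genes were called with a pseudocount of 0.1.

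Of the lists, the cytokines had 1 called gene at 5 TPM and 1 with quantile normalization (1 to 2 with a library left out). The receptor chains had 5 with median-ratio scaling and 4 with quantile normalization, and the other kinases and STAT factors had 5 with quantile normalization. The inhibitors had 9 with the mitochondrial genes removed, 2 with the length and GC trend removed, and 2 to 7 with a library left out. The cause of these moves was not tested. Without DMSO replicate 4, ADAM17, STAT6, SOCS5, SOCS7, PIAS4, PTPN11, CCND1, JUNB and MCL1 also became called, all lower. Adaptors (3 to 5 called) and STAT3 targets (12 to 17) stayed within 1.5 times. Sampling depth is unknown, which limits what can be said of IL6ST with EB, IL6R and JAK2 with DMSO, and other genes near 1 TPM.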

Other observations

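GRB2, the adaptor that recruits SOS1, had the widest spread of the adaptors. Its TPM was 78.4, 33.7, 37.5 and 17.6 in DMSO replicates 1 to 4 and 55.5, 31.2, 25.9 and 19.6 in EB replicates 1 to 4, so that replicate 1 was the highest and replicate 4 the lowest in both groups. The log2 fold change was −0.24 (standard error 0.42, limma adjusted p = 0.674). GRB2 was singled out after its values were seen.

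Among the genes below the filter, LEPR, the leptin receptor, was at 0.23 to 0.37 TPM with DMSO and 0.33 to 0.60 with EB, and CSF3R was listed at 0 in all libraries. EBI3, a subunit of interleukin 27 and 35, was at 0.35 to 1.38 TPM with DMSO and 0.12 to 0.64 with EB.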
